A study of Mus musculus with 241 samples.

Results

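Fgf3 encodes a secreted fibroblast growth factor, and it was examined here as 1 of 24506 genes in the bulk table, 1 of 27998 in the 10x tables and 1 of 43346 in the C1 table. It was chosen by its bulk values, which rise between early thymic progenitors (ETP) and the DN2a stage, so that rise is described here without a test. The cells were mouse thymic pro-T cells of strain C57BL/6 with no treatment, all lineage-negative (Lin-), 7AAD-, CD44+ and Kit+. The 12 bulk libraries came from mice of genotype Bcl11byfp/yfp, in which YFP reports Bcl11b, and were sorted into 5 populations. CD25- cells gave 2 libraries of Flt3+ ETP, 2 of Flt3- ETP and 2 of total ETP, sorted without regard to Flt3. CD25+ cells gave 3 libraries of Bcl11b- DN2a and 3 of Bcl11b+ DN2a. The single cells came from WT mice and were sorted on the 4 shared criteria only, giving 2 droplet (10x) libraries and single cells on C1 chips. The labels name no animals or cultures, and the spread that each p-value rests on is only that among these libraries and may be technical in part.

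ETP are the most immature T-cell precursors of the thymus. They turn on Il2ra, which encodes CD25, as they become DN2a cells under Notch signalling, and then turn on Bcl11b, the transcription factor tied to commitment to the T lineage. Fibroblast growth factors bind heparan sulphate and tyrosine kinase receptors of the Fgfr family on the cell surface, and the receptors pass the signal through adaptors to the ERK kinase cascade. Fgf3 is best known as an oncogene of mouse mammary tumour virus integration and as a signal in development of the inner ear and the tail.

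The bulk libraries held 21206647 to 38537100 reads on genes, and the 10x libraries 43734920 and 55522900 UMIs. The NEBNext Ultra kit made 8 bulk libraries and the SMART-Seq v4 kit 4, the latter being replicate 2 of both Flt3-sorted ETP populations and replicate 3 of both DN2a populations. Flt3, Il2ra and Bcl11b followed the sort labels, with Il2ra at 1.02 to 18.4 FPKM in ETP and at 183.6 to 301 FPKM in DN2a libraries. Bcl11b was at 0.596 to 6.11 FPKM in the 3 Bcl11b- and at 16.1 to 44.3 FPKM in the 3 Bcl11b+ DN2a libraries. Kit, used in every gate, was at 21.7 to 121.3 FPKM in all 12. Replicate 1 of the 2 Flt3-sorted ETP populations and of both DN2a populations share a number series in the labels, and its 2 ETP libraries stand apart. They held Il2ra at 17.5 and 18.4, Bcl11b at 5.77 and 4.54 and Cd3g at 52.5 and 39.9 FPKM, where the other 4 ETP libraries held at most 10.6, 0.167 and 5.42. Values without this series are given with the results, and then Flt3+ and Flt3- ETP have 1 library each, assumed to vary like the other populations.

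Fgf3 (NM_008007, ENSMUSG00000031074) lies on the plus strand of mouse chromosome 7, and its RefSeq model covers chr7:144838612-144843348 (mm10). GENCODE vM21 lists 2 transcripts, the longer of which has 3 exons from 144838595 to 144844436. The other transcript has 4 exons and begins upstream, at 144838083, so that the sequence directly before the first exon of the longer one lies in an intron of the other. That sequence is shown as the proximal promoter by the longer model, and no binding or chromatin data were analysed here. It is the plus strand of chr7:144838362-144838594 from RefSeq (GRCm38.p6), written 5′ to 3′, with matches to the searched letters in capitals.
Fgf3 upstream: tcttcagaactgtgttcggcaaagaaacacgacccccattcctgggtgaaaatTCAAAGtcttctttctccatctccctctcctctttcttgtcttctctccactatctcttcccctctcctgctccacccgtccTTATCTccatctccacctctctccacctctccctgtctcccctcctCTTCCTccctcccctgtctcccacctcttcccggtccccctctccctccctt
Of these 233 bases, 79.8% were C or T, against a median of 49.8% over 32841 windows of equal length and position before gene starts, of which 0.0792% were as high or higher. Letters of 6 motifs of factors active in T-cell precursors were searched on both strands, and 3 had a match. TCAAAG, known for TCF factors, occurred once, at chr7:144838415-144838420, and is held by 13.2% of the windows. AGATAA, known for GATA factors, occurred once on the minus strand, at chr7:144838497-144838502, and is held by 9.58%. AGGAAG, known for ETS factors, occurred once on the minus strand, 69 bases before the RefSeq start, and is held by 27.5%. TGGGAA (RBPJ), TGTGGT (RUNX) and CANNTG (E box), held by 20.3%, 13.3% and 63.9% of the windows, had no match. These motifs do not overlap one another in the window, and a match is a stretch of letters, not a measured site.

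In bulk, Fgf3 was near the limit of detection in Flt3+ ETP, low in the other ETP and high in both DN2a populations. Values are FPKM, reads per kilobase of the gene model scaled to library size, followed by the reads recovered from them. Flt3+ ETP had 1.10 FPKM (54 reads) in replicate 1 and 0.104 FPKM (6 reads) in replicate 2. Flt3- ETP had 3.39 FPKM in replicate 1 and 1.75 FPKM (98 reads) in replicate 2. Total ETP had 2.44 FPKM (93 reads) and 0.965 FPKM (34 reads). No ETP library thus exceeded 3.39 FPKM. Both Flt3- values lay above both Flt3+ values, and total ETP, sorted without regard to Flt3, overlapped both of these populations.

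The Bcl11b- DN2a libraries had 75.2, 59.7 and 47.8 FPKM (3969, 2537 and 2517 reads). The Bcl11b+ DN2a libraries had 50.0, 37.5 and 38.5 FPKM (3184, 1730 and 2044 reads). All 6 DN2a libraries therefore lay above all 6 ETP libraries, the lowest DN2a value of 37.5 FPKM facing a highest ETP value of 3.39 FPKM. Among the 24506 genes, Fgf3 ranked between 8546 and 12956 in the ETP libraries and between 743 and 2262 in the DN2a libraries, counted from the highest value.

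**Figure D1:**
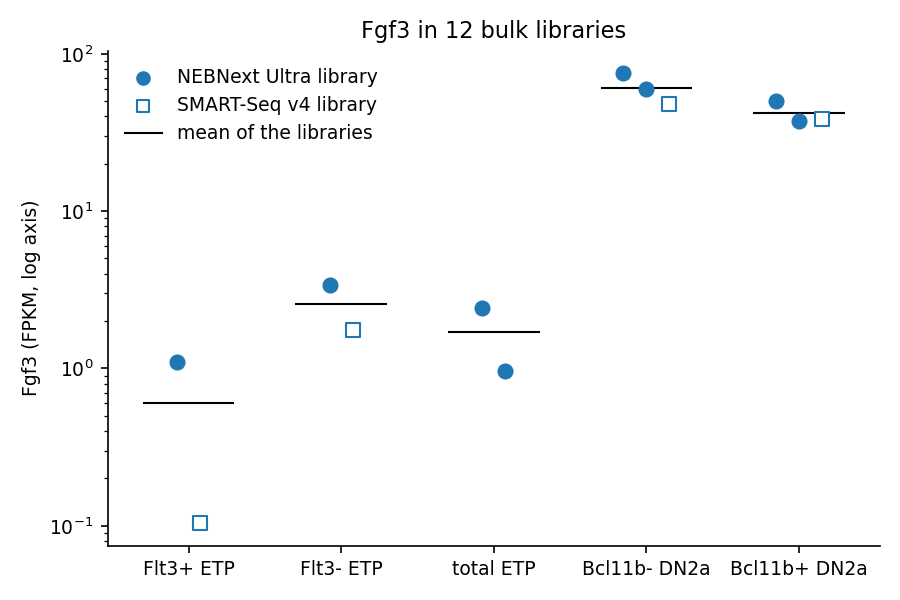
Fgf3 in the 12 bulk libraries, in FPKM on a log axis, by sorted population. Filled circles are NEBNext Ultra and open squares SMART-Seq v4 libraries, and bars are means of 2 or 3 libraries; the DN2a libraries sit between 37.5 and 75.2 FPKM, above the ETP libraries at 0.104 to 3.39 FPKM.

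By population mean, Fgf3 was lowest in Flt3+ ETP, at 0.604 ± 0.706 FPKM (SD, n = 2), followed by total ETP at 1.70 ± 1.04 (n = 2) and Flt3- ETP at 2.57 ± 1.16 (n = 2). Bcl11b+ DN2a had 41.97 ± 6.93 FPKM (n = 3) and Bcl11b- DN2a 60.9 ± 13.7 (n = 3). On the log2(FPKM + 1) scale and with the kit as a term, Bcl11b- DN2a exceeded Flt3- ETP by 4.05 and total ETP by 4.73. Without the first number series these differences were 4.24 and 4.46. In bulk RNA, more Fgf3 per cell and more cells with Fgf3 cannot be told apart.

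The step between the 2 Flt3-sorted ETP populations did not pass the test. Fgf3 was 1.19 higher in Flt3- than in Flt3+ ETP on the log2(FPKM + 1) scale (SE 0.27, limma, Benjamini-Hochberg adjusted p = 0.0935 over 12112 genes), where 0.685% of genes passed, 0.421% higher and 0.264% lower. Both Flt3- libraries lay above both Flt3+ libraries. The call depends on the fit, since the adjusted p in limma was 0.0057 with a replicate block and 0.733 without replicate 1 of Flt3- ETP. Without the first number series 1 library is left in each of these populations, and the adjusted p of 0.0328 then takes the spread of the other populations for theirs.

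Within DN2a, Fgf3 was lower in Bcl11b+ than in Bcl11b- cells by an amount that did not pass the test. The difference was -0.52 on the log2(FPKM + 1) scale (SE 0.22, limma, adjusted p = 0.392). In this comparison 2.79% of genes passed, 1.15% higher and 1.64% lower. With the libraries paired by a replicate block the difference was also -0.52 (limma adjusted p = 0.056). It was -0.48 without the first number series (limma adjusted p = 0.196). The ratio of Bcl11b- to Bcl11b+ was 1.51, 1.59 and 1.24 in the 3 pairs made in the same number series, so Bcl11b- was the higher member of each pair while the populations overlapped at 47.8 and 50.0 FPKM. Il2ra was at 183.6 to 253 FPKM in Bcl11b- and at 220.1 to 301 FPKM in Bcl11b+ DN2a libraries. The level of Fgf3 as a percent of the level of Il2ra, both per kilobase, was 26.1 to 29.7 in Bcl11b- and 12.5 to 18.2 in Bcl11b+ DN2a libraries, with no overlap. In ETP libraries it ranged from 6.31 to 36.8. Il2ra was higher in Bcl11b+ than in Bcl11b- DN2a in each number series, which adds to the gap in this percent. The percent was not tested and not set beside that of other genes. Bcl11b+ DN2a libraries also held more Cd3g, a chain of the T-cell receptor complex, at 34.5 to 90.6 against 0.801 to 19.8 FPKM, and the part of this in the Fgf3 values was not tested in bulk.

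In single cells the same gene was seen as UMIs, counts of distinct captured molecules. After removal of cells with fewer than 1000 genes or more than 10% mitochondrial UMIs, 4878 and 8434 cells remained in the 2 libraries, with medians of 8488.5 and 6137 UMIs. The libraries shared 57 cell barcodes. An Fgf3 UMI was found in 1082 cells of library 1 (22.2%, 95% exact binomial interval 21.02 to 23.37) and in 1592 cells of library 2 (18.9%, 18.05 to 19.73). Most of these cells were near the limit of capture, as 597 and 943 of them held 1 Fgf3 UMI and the highest counts were 9 and 10. Because detection rises with depth, the following shares use cells thinned at random to 4000 UMIs, which kept 4628 and 6978 cells and left out 250 and 1456 shallower ones. Cells are not replicates, so intervals cover counting error only and no test between cell classes was made.

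Fgf3 was detected mainly in cells with Il2ra. Among cells with an Il2ra UMI, 22.9% (21.1 to 24.9) in library 1 and 23.9% (22.3 to 25.5) in library 2 had Fgf3. Among cells without one, 6.53% (5.62 to 7.53) and 8.63% (7.80 to 9.52) did. Before thinning the shares were 35.8% and 30.8% with Il2ra and 6.01% and 7.98% without. Cells with an Il2ra UMI were not all alike: those with 1 had Fgf3 in 19.01% and 20.2%, and those with 5 or more in 33.04% and 30.7%. Cells with Flt3 and without Il2ra, the class nearest to Flt3+ ETP, had Fgf3 in 2.19% (0.716 to 5.04) and 1.57% (0.577 to 3.38). In the other direction, 71.6% and 64.3% of cells with Fgf3 had an Il2ra UMI, against 37.1% and 35.2% of cells without Fgf3. Thinning removes Il2ra UMIs too, and before it these shares were 87.6% and 77.9% against 44.8% and 40.7%.

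Detection of Bcl11b divided the cells with Il2ra less clearly. Fgf3 was found in 25.4% (23.1 to 27.9) and 24.99% (22.95 to 27.1) of cells with Il2ra and no Bcl11b UMI, and in 18.2% (15.3 to 21.3) and 21.97% (19.5 to 24.6) of cells with both. The intervals of library 2 overlap. The size of the difference depended on the setting: with 2 UMIs needed to count as positive for Il2ra or Bcl11b, the shares were 30.8% and 29.7% without and 12.2% and 18.3% with Bcl11b, and with thinning to 2000 UMIs 13.25% and 13.6% without and 8.54% and 9.08% with it. Without thinning they were 35.2% and 32.8% without and 36.6% and 28.7% with Bcl11b, so cells with Bcl11b had the lower share in both libraries under each thinned setting and in library 2 alone without thinning. Cells with Il2ra and Bcl11b were then divided by Cd3g, a split chosen after the values were seen. Those without a Cd3g UMI had Fgf3 in 24.6% (20.7 to 28.9) and 28.3% (25.1 to 31.7), with intervals that overlap those of the cells without Bcl11b. That position moved with the setting, to 52.6% and 41.7% without thinning, above the cells without Bcl11b, and to 17.7% and 24.6% with 2 UMIs needed, below them. Those with a Cd3g UMI had it in 4.67% (2.26 to 8.43) and 5.82% (3.43 to 9.16). Cells with Il2ra and 3 or more Cd3g UMIs had Fgf3 in 2.91% and 2.47%, or 4.27% and 4.04% before thinning. Among cells with both Il2ra and Bcl11b, the low shares were thus those of cells with Cd3g. The Cd3g cells were shallower, with medians of 5886 and 4907 UMIs in the class with Il2ra, Bcl11b and Cd3g against 9688 and 7387 in that without Cd3g, which is why the thinned shares are compared.

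**Figure D2:**
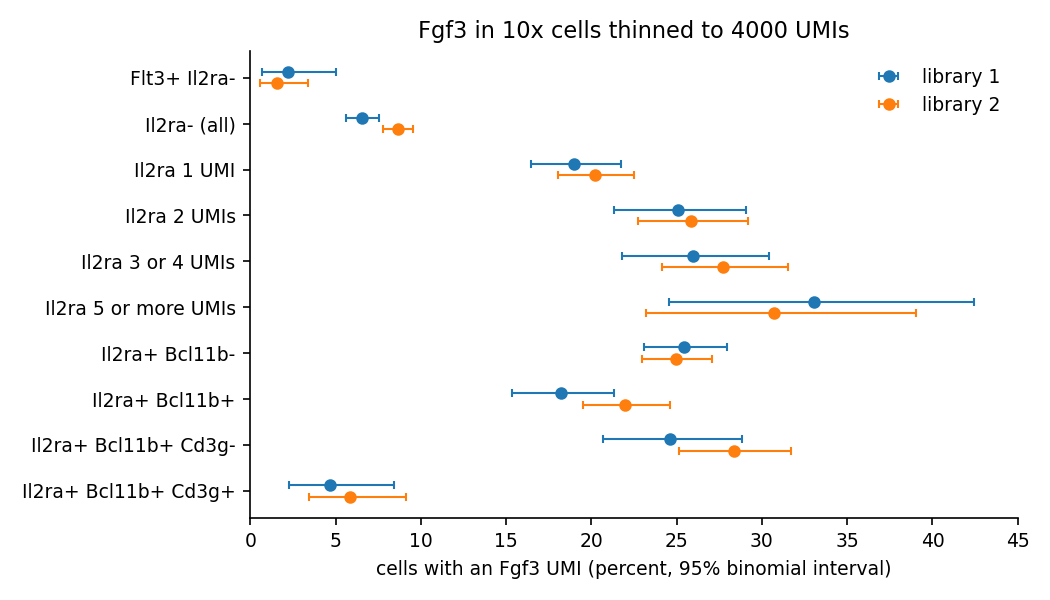
Percent of 10x cells with an Fgf3 UMI after thinning to 4000 UMIs, by the UMIs of Flt3, Il2ra, Bcl11b and Cd3g in the same thinned cell, for libraries 1 and 2, with 95% exact binomial intervals. The classes plotted with Il2ra lie between 18.2% and 33.04%, apart from that with Il2ra, Bcl11b and Cd3g, at 4.67% and 5.82%.

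Clusters built without Fgf3 and the FGF genes placed Fgf3 in a similar way. Il2ra, Bcl11b and Cd3g were not left out, so the clusters are not independent of the classes above. The 13 clusters are numbered by size. The 4 with the highest Fgf3 shares (2, 3, 5 and 9) held 83.5% and 79.3% of all Fgf3 UMIs in 37.9% and 37.2% of the cells. They are named by their Fgf3 values, so this only describes where the UMIs lie. Cluster 3, which carried DN2a markers and was led by Bcl11b and Il7r, had Fgf3 in 26.97% and 23.4% of thinned cells. Cluster 2, led by Ccl5, Hbb-bt and Fcer1g, had 28.5% and 31.1%. Cluster 5, led by Hbb-bt and Ung, had 26.1% and 28.2%, and Fgf3 itself was among the leading genes of clusters 2 and 5. Cluster 9, led by histone and mitosis genes and with Il2ra at 424 and 395 CPM (UMIs scaled to the total of the cells), had 29.1% and 26.5%. The other clusters led by cell-cycle genes had lower shares. Cluster 7, led by Hist1h2bc, Ccnb2 and Cenpa and with Flt3 at 24.3 and 21.1 CPM, had 12.4% (9.25 to 16.2) and 16.8% (14.2 to 19.7) and held 8.22% and 10.5% of all Fgf3 UMIs. Cluster 4, with Il2ra at 43.01 and 43.3 CPM, had 2.45% and 3.78%.

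Clusters at both ends of the series held little Fgf3. Cluster 6, ETP-like and led by Hmga2, Ccnd1 and Flt3, had Fgf3 in 1.35% (0.498 to 2.92) and 0.295% (0.0358 to 1.06) of thinned cells. The other ETP-like clusters had higher shares. Cluster 1, the largest, led by Cd7 and Klrd1, had 3.49% (2.31 to 5.035) and 4.13% (2.92 to 5.65). Cluster 11, led by Ifit1 and Isg15, had 3.76% and 1.49%. Cluster 8, committed T-like and led by Cd3d, Cd3g and Ptcra, kept Il2ra at 516 and 441 CPM, above the 350 to 486 and 295 to 410 of clusters 2, 3, 5 and 9. It had Fgf3 in 1.41% (0.171 to 4.99) of thinned cells in library 1 and in none in library 2, which allows up to 2.03% where 3 counts are taken as the limit of a count of 0 (2.46% by the exact interval), and in 2 of 306 and 1 of 621 cells before thinning. Its median depth was 3869 and 3214 UMIs. Cluster 12, committed T-like with Gzma and Sh2d1a among its leading genes, had Fgf3 in no cell of library 1, which allows up to 2.17% by the same limit of 3 counts (2.64% by the exact interval), and in 4 of 247 cells of library 2, before thinning.

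As a measure of background from free RNA, the granulocyte-like cluster 13, led by Prtn3, Elane and Ctsg, had Fgf3 in 4.08% (0.498 to 13.98) of 49 and 6.38% (1.34 to 17.5) of 47 thinned cells. These intervals are wide and hold the shares of all cells without Il2ra, 6.53% and 8.63%. The ETP-like clusters 6 and 1, both larger than cluster 13, had lower shares than those cells. Upper limits were 2.92% and 1.06% for cluster 6 and 5.035% and 5.65% for cluster 1. The cells without an Il2ra UMI thus lay above both clusters of the same libraries. Those among them with a Bcl11b UMI had Fgf3 in 10.1% (6.503 to 14.7) and 18.1% (14.7 to 21.96). The source of Fgf3 UMIs in cells without an Il2ra UMI was not tested. The shares in clusters 2, 3, 5 and 9, the highest of all clusters, lie above the intervals of cluster 13. Il2ra is among the 7 DN2a markers, and its part in their sum was not separated. Fgf3 cells held more of these markers, all 7 being detected, at a summed 843 and 814 against 450 and 491 CPM in other cells. They held less of the 10 committed T markers, at 594 and 673 against 904 and 1104. The 8 ETP markers were lower as well, at 651 and 668 against 1047 and 1064. Of other cell types, the 6 mast cell and basophil markers, 4 of them detected, summed to 268 and 237 CPM in Fgf3 cells. In other cells they summed to 157.3 and 148.6. Cpa3, among these markers, was also a leading gene of the DN2a-like cluster 3, and its part in the sum was not separated. The 12 granulocyte markers were lower, at 154.9 and 93.95 against 247.7 and 219.6. In both libraries the dendritic, epithelial or stromal and erythroid sets were also higher, and the innate T/NK/ILC, B-cell and macrophage sets lower. The part of these cell types in the Fgf3 values was not tested. The deepest 5% of cells, where doublets would lie, had Fgf3 in 36.1% and 34.4% without thinning, against 21.4% and 18.1% of the rest, and no doublet caller was run.

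**Figure D3:**
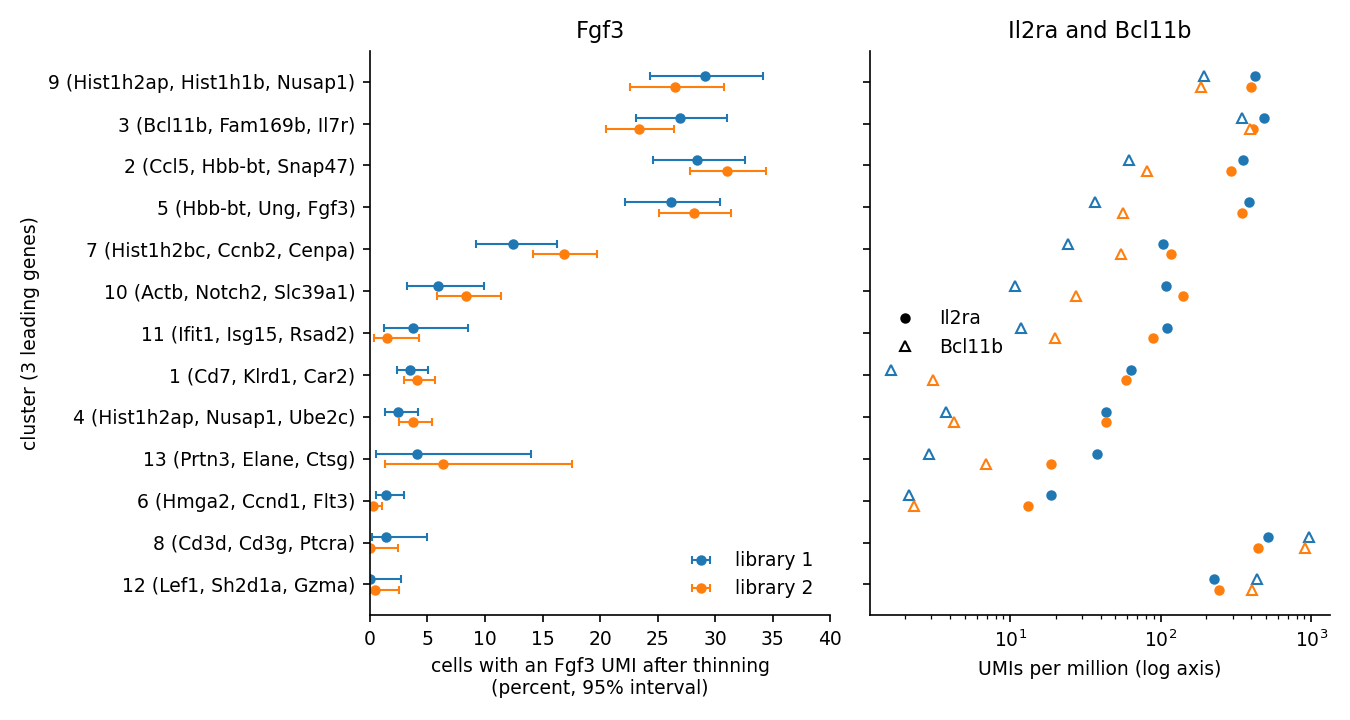
Left, percent of thinned 10x cells with an Fgf3 UMI in each of 13 clusters, with 95% exact binomial intervals, ordered by Fgf3 CPM in library 1. Right, Il2ra (circles) and Bcl11b (triangles) in CPM on a log axis; cluster 8 has Il2ra at 516 and 441 and Bcl11b at 962 and 905 but Fgf3 in 1.41% of cells in library 1 and in none in library 2.

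The C1 cells, sequenced over whole transcripts and each 1 cell of unnamed animals, gave the same picture for Il2ra. Among cells with at least 1000 genes above 1 FPKM, Fgf3 was above 1 FPKM in 54 (24.3%, 95% exact binomial interval 18.8 to 30.5), with a median of 22.95 and a highest value of 171.7 FPKM. It was found in 50 cells with Il2ra (40.7% of these, 31.9 to 49.9) and in 4 of 99 without (4.04%, 1.11 to 10.0). Il2ra was above 1 FPKM in 92.6% (82.1 to 97.9) of the cells with Fgf3 and in 43.5% (35.8 to 51.3) of those without. Flt3 went the other way, at 9.26% (3.08 to 20.3) and 44.1% (36.4 to 51.9).

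A lower share with Bcl11b was not seen in C1 cells, which were few and not evened for depth, so a difference by Bcl11b cannot be judged here. Fgf3 was found in 35 of 94 cells with Il2ra and no Bcl11b (37.2%, 27.5 to 47.8) and in 15 of 29 with both (51.7%, 32.5 to 70.6), with overlapping intervals. Cd3g was above 1 FPKM in 5 of the Il2ra cells, of which 3 had Fgf3 (interval 14.7% to 94.7%), so the difference by Cd3g seen in 10x cells could not be examined here. The cells come with 2 forms of title in the labels, and Fgf3 was in 49.2% of the 63 Il2ra cells with one form and 31.7% of the 60 with the other, with overlapping intervals.

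**Figure D4:**
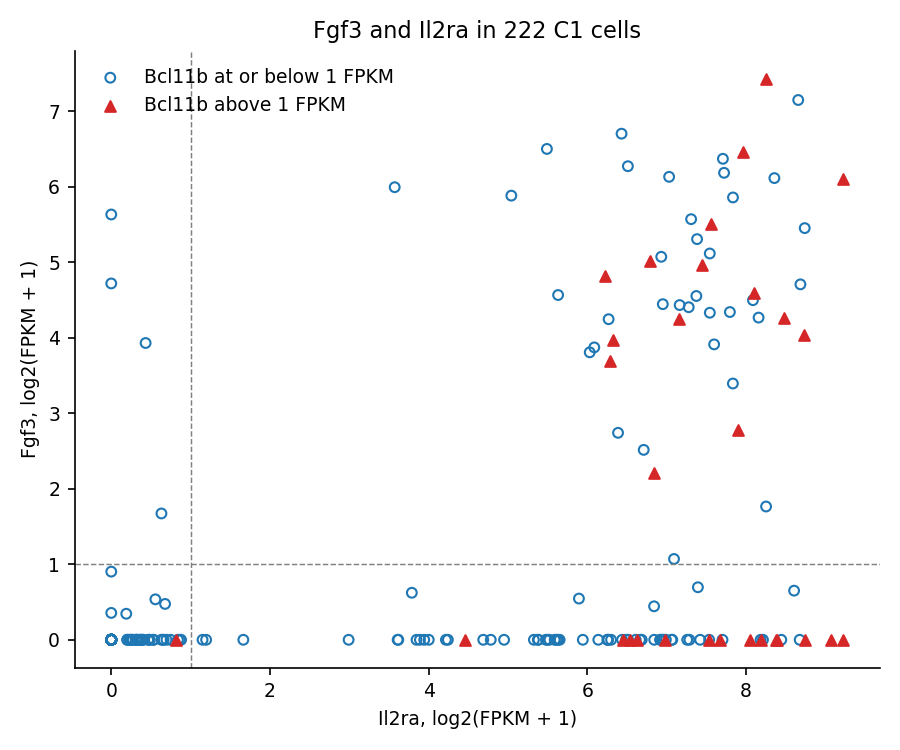
Fgf3 against Il2ra in the C1 cells, each axis as log2(FPKM + 1), with red triangles for cells with Bcl11b above 1 FPKM and dashed lines at 1 FPKM. Of the 54 cells above the Fgf3 line, 50 lie right of the Il2ra line, where 73 further cells have Fgf3 at or below 1 FPKM.

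Genes with a pattern like that of Fgf3 were ranked by Pearson's r over the 12 bulk libraries on the log2(FPKM + 1) scale, among 4166 genes that spanned at least 1 log2 unit. The libraries share kits and populations, so these values only describe the pattern. Over the 8 libraries outside the first number series, r for the 8 genes named was 0.92 to 0.98. Il2ra was the most similar (r = 0.96), followed by Emilin2, an extracellular matrix glycoprotein, and Ripply1, a co-repressor known from somites (both r = 0.94). Ralb, a small GTPase, and Sult5a1, a sulphotransferase, had r = 0.93, as did the tight junction gene Cldn2. Tas1r1, a taste receptor subunit, had r = 0.93 and Adgrg5, an adhesion receptor, 0.92. Of these, Emilin2 and Ralb were already present in ETP, with population means taken on the log2 scale of 4.51 to 9.68 FPKM and 4.16 to 5.72 FPKM. Cldn2, by contrast, went from at most 0.226 FPKM in ETP to 2.36 and 3.67 FPKM in Bcl11b- and Bcl11b+ DN2a. Ripply1, at 1.13 and 1.335 FPKM, and Sult5a1, at 1.14 and 0.991 FPKM, stayed near the filter of 1 FPKM in these DN2a populations.

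Within thinned 10x cells with Il2ra, 443 and 656 cells with Fgf3 were set beside 1488 and 2094 without, over 1207 genes of at least 100 CPM. Of these and Fgf3 itself, which defines the cell sets, 773 differed in the same direction in both libraries. The genes that were most raised with Fgf3 had small ratios. Fcer1g, a signalling adaptor of Fc receptors, was 1.68 and 1.72 times as high, and the beta-globin gene Hbb-bt 1.58 and 1.38 times. Cst7, Mycn, Gyg, Nrgn, Nfkb1 and Pim1 followed, at 1.198 to 1.37 times. The genes that were most reduced belonged to the T-cell receptor complex, with Cd3g 16.1 and 14.5 times and Cd3d 21.9 and 9.92 times lower in cells with Fgf3. Rgcc, Thy1, a surface protein of T cells, Dntt, which adds bases at receptor gene joints, Lgals1 and Arpp21 were 1.31 to 2.11 times lower. Bcl11b was 2.00 and 1.47 times lower. Cells were not treated as replicates, and no test was made on these ratios.

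The FGF receptor genes were examined next. Of the 5 FGF receptor genes, Fgfr1 and Fgfrl1 were above 1 FPKM in at least 2 bulk libraries, the filter for testing. Fgfr1, a tyrosine kinase receptor, was at 1.46 to 3.75 FPKM in the 6 ETP libraries, at 2.30, 2.02 and 1.31 in Bcl11b- DN2a and at 2.03, 1.52 and 0.827 in Bcl11b+ DN2a. Fgfrl1, a related receptor without a kinase domain, was at 1.70 to 2.95 FPKM in ETP and at 1.85 to 4.27 in DN2a libraries. Neither passed the test in any of the 4 comparisons, and Fgfr1 in Bcl11b- DN2a differed from Flt3- ETP by -0.30 on the log2(FPKM + 1) scale (SE 0.17, limma, adjusted p = 0.276). Fgfr2 reached at most 0.236, Fgfr3 0.508 and Fgfr4 0.061 FPKM in the 12 libraries. Per kilobase, Fgf3 in DN2a libraries was thus far above each of the 5 FGF receptor genes. These values are per gene, so splice forms of a receptor are not told apart, and binding of Fgf3 was not measured.

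Single cells showed the same 2 receptors at low detection. Fgfr1 gave a UMI in 4.37% (3.81 to 4.98) and 3.12% (2.76 to 3.51) of cells, and Fgfrl1 in 1.89% (1.52 to 2.31) and 1.68% (1.42 to 1.98). Fgfr3 gave 3 UMIs in each library. Fgfr2 and Fgfr4 gave none, which by the limit of 3 counts allows up to 0.0615% and 0.0356% of cells with a UMI. After thinning, Fgfr1 was found in 2.10% (1.12 to 3.57) and 2.45% (1.59 to 3.59) of cells with Fgf3 and in 1.95% (1.54 to 2.42) and 2.00% (1.66 to 2.39) of cells without, a difference not detectable at this depth. In C1 cells, Fgfr1 was above 1 FPKM in 12 of 54 cells with Fgf3 (22.2%, 12.04 to 35.6) and in 15 without (8.93%, 5.08 to 14.3), with overlapping intervals. With detection above 0 FPKM the C1 shares were 21.9% and 17.1%.

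Fgf3 stood alone among secreted ligands. Of 21 other FGF ligand genes, only Fgf11 and Fgf13 passed the filter, and both belong to the subfamily of intracellular FGF homologous factors. Fgf13 was at 1.57 to 11.4 FPKM in ETP and at 0.438 to 2.37 FPKM in DN2a libraries. It fell by 1.76 on the log2(FPKM + 1) scale from total ETP to Bcl11b- DN2a (SE 0.28, limma, adjusted p = 0.00335), while against Flt3- ETP the difference was -1.03 (adjusted p = 0.062, limma). Without the first number series these were -1.41 and -1.57, both called in limma. Fgf11 was at 0.122 to 0.815 FPKM in ETP and 0.474 to 2.20 in DN2a, and passed no test. The other 19 reached at most 0.843 FPKM in any library, and 11 of the 21 gave no UMI in either 10x library.

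**Figure D5:**
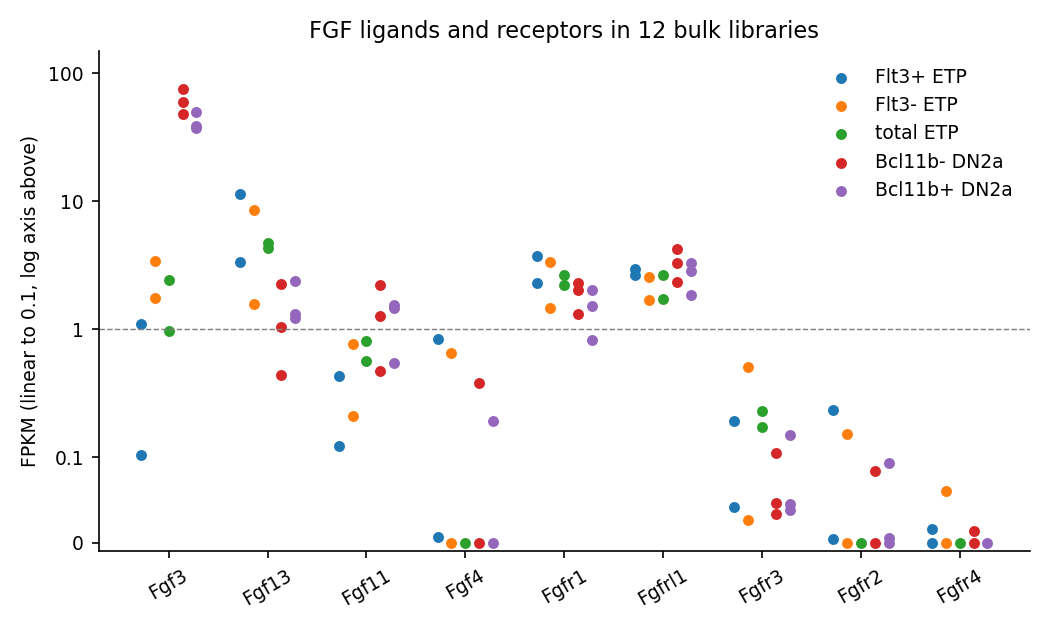
FPKM of FGF ligands and receptors in the 12 bulk libraries by population, on an axis that is linear to 0.1 and logarithmic above, with a dashed line at 1 FPKM. Fgf3 in DN2a, at 37.5 to 75.2 FPKM, lies above Fgfr1 and Fgfrl1, whose highest values are 3.75 and 4.27 FPKM.

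The wider pathway was read from 5 lists with 93 genes: the ligands, the receptors, 27 co-receptors, binding proteins and heparan sulphate enzymes, 20 adaptors and ERK cascade members, and 20 feedback and response genes of ERK. Above the filter were 49. Where Fgf3 rises, from Flt3- ETP to Bcl11b- DN2a, 4 of the 49 passed the test (8.16%, against 3.97% of all genes), all lower (2.35% of all genes were called lower and 1.62% higher). The median over the 49 was -0.06, against 0.12 over all genes tested. Of 12 feedback and response genes above the filter, 3 fell, with a list median of -0.59. The lists did not move together. The 19 adaptors and ERK cascade members above the filter had a median of 0.41, with 0 called. Medians were -0.19 for co-receptors, binding proteins and heparan sulphate enzymes, -0.27 for the other ligands and 0.04 for receptors. Etv5, an ETS factor known as a response gene of FGF signalling, fell from 5.88 and 2.38 FPKM to 1.21, 0.441 and 0.249 (-1.72, SE 0.21, limma adjusted p = 0.00107), and all 3 DN2a values lay below both ETP values. Dusp6, a phosphatase that acts on ERK, fell from 10.6 and 25.1 FPKM to 4.49, 6.61 and 7.63 (-1.18, SE 0.24, limma adjusted p = 0.0182). Ccnd1, a G1 cyclin, fell by 1.04 (SE 0.19, limma adjusted p = 0.0119). Sulf2, an enzyme that removes sulphate from heparan sulphate, fell by 1.04 (SE 0.25, limma adjusted p = 0.0409). Each of the 4 calls was lost without the kit term, that of Ccnd1 in 3, that of Dusp6 in 6 and that of Sulf2 in 9 of 16 alternatives. Without the first number series Flt3- ETP has 1 library, and the differences were -1.60 for Etv5, -1.63 for Dusp6, -1.23 for Ccnd1 and -1.17 for Sulf2. The 10x classes at hand differ from these sorts, since the ETP side is cells with a Flt3 UMI and no Il2ra UMI. There Etv5 was at 10.1 and 7.04 CPM, against 1.14 and 0.967 CPM in Il2ra cells without Bcl11b, and Dusp6 at 38.3 and 42.5 against 12.9 and 15.2. Ccnd1 was at 38.95 and 25.5 against 9.83 and 6.22, and Sulf2 at 5.28 and 8.36 against 4.57 and 2.83 CPM. Dusp5, a feedback gene not called in this bulk comparison, went the other way, at 40.05 and 39.83 against 61.95 and 58.25 CPM.

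Against total ETP, 9 of the 49 genes passed (18.4%, against 15.6% of all genes), a share close to that of all genes. Lower were Ccnd1, Dusp6, Etv5, Spred1, Sulf2 and Fgf13 (12.2%, against 5.87% of all genes). Higher were Hras, Map2k2 and Dusp5 (6.12%, against 9.78%). Of 16 alternatives, the calls of Hras were lost in 9, of Spred1 and Sulf2 in 8 each and of Map2k2 in 7, those of Dusp5 in 2 and of the other 4 in 1. All 9 were called, in the same direction, without the first number series. Both comparisons share the Bcl11b- DN2a libraries. From Bcl11b- to Bcl11b+ DN2a, 3 of the 49 genes fell (6.12%), namely Ccnd1, the stress and ERK response gene Ier3 and Sulf2. Of all genes, 1.64% were called lower and 2.79% in either direction. Ier3 had 7.22, 5.52 and 13.03 FPKM in Bcl11b- and 2.56, 2.42 and 7.09 FPKM in Bcl11b+ DN2a, lower in each number series (-0.98, SE 0.14, limma adjusted p = 0.00342). Of 17 alternatives, the call of Sulf2 was lost in 10, among them leaving out any 1 of the 3 Bcl11b- DN2a libraries, that of Ccnd1 in 4 and that of Ier3 in 2. Without the first number series the 3 differences were -0.99 for Ccnd1, -0.86 for Ier3 and -1.004 for Sulf2, each called in limma. Between Flt3- and Flt3+ ETP, 0 of the 49 passed in limma.

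Genes beside Fgf3 on chromosome 7 did not show its rise. The closest, Fgf4, begins 18.04 kb downstream and was at 0.843, 0.647, 0.380 and 0.191 FPKM in the 4 libraries of the first number series and at no more than 0.007 FPKM in the other 8, with no UMI in the 10x cells. Fgf15, at 53.2 kb, reached at most 0.27 FPKM. Oraov1, at 71.8 kb, was at 6.38 to 8.10 FPKM in ETP and 6.495 to 9.07 FPKM in DN2a libraries. Upstream, Ano1, the nearest on that side, was at no more than 0.232 FPKM and Fadd, a death receptor adaptor, at 2.29 to 7.07 FPKM. Ppfia1, 284.9 kb away, was 0.92 higher in Bcl11b- DN2a than in Flt3- ETP (SE 0.18, limma adjusted p = 0.0158), at 20.02, 21.5 and 6.11 against 8.03 and 4.02 FPKM. Total ETP already had Ppfia1 at 14.1 and 14.3 FPKM, and without the first number series the difference was 0.49 and not called (limma adjusted p = 0.0583).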

How the data were processed

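The deposited bulk values are FPKM from HOMER tag directories, per the file headers, and the C1 values are FPKM by the authors. For both, the submitters' processing notes name STAR 2.4.0 and RSEM 1.2.25 on mm10, with their settings not given in the sources used here. The deposited 10x matrices hold UMI counts from Cell Ranger 2.0 (mm10), per those notes. Fgf3 was found in 1 row of each table. The gene and all lists were chosen with earlier results of these data known.

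Bulk values were tested with limma 3.58.1 (R 4.3.3, variance trend) on log2(FPKM + 1), with population and kit as terms over all 12 libraries, on 12112 genes above 1 FPKM in at least 2 libraries. Calls had a Benjamini-Hochberg adjusted p under 0.05. The pseudocount understates changes of low genes. Whole reads could be recovered for 100% of the values examined (within 0.1 read), and edgeR 4.0.16 on those reads was an added alternative. On simulated data the limma step was checked for each comparison. DN2a libraries were matched by label replicate number, or by the SMART-Seq kit where the label gives none. Deviations of matched libraries correlated at 0.561, 0.823 and 0.508 after removing the kit. Matched Flt3- and Flt3+ ETP libraries correlated at 0.100, and Bcl11b- DN2a with Flt3- ETP libraries at 0.187 and -0.711. The replicate block, an alternative fit, takes all these matches as given. It also joins replicate 1 of total ETP to the first number series, of which it is not part.

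10x cells needed at least 1000 genes and at most 10% mitochondrial UMIs, were thinned once to 4000 UMIs for shares, and were clustered, without Fgf3 and the FGF lists, with scanpy 1.11.5 (Leiden, resolution 1). Clusters were named from marker lists only. Named genes were Fgf3, Il2ra, Bcl11b, Flt3 and Kit, all FGF receptors, listed genes that were called, 3 neighbours on each side, the 8 most similar genes in bulk and the 8 most raised and 8 most reduced genes beside Fgf3 in 10x cells. Cd3g was added after its values were seen.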

Additional observations from a re-analysis of the deposited data

How the results depend on the processing

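Fgf3 kept its direction in all 32 alternatives of its 2 tested differences and all 32 of its 2 described ones. Bcl11b+ against Bcl11b- DN2a never passed limma's threshold, with the replicate block at -0.52 (adjusted p = 0.056), or edgeR's. Flt3- against Flt3+ ETP passed in limma with quantile normalization (1.44), the replicate block, the number series as a term and only the compared populations (each 1.19), and without the first number series (1.32, added), where each population has 1 library and the spread comes from the others. It was 2.36 with a pseudocount of 0.1 and 2.404 in edgeR (added), neither called. Leaving out 1 library gave 0.93 to 1.44, with 1 library then left in the population concerned. The rise to Bcl11b- DN2a from total ETP was 5.499 with a pseudocount of 0.1 and 5.39 in edgeR (added).

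Counts of listed FGF genes called varied more. The share of all genes called in each alternative is not given here, so these counts are not read as a shift of the pathway. For Bcl11b- DN2a against Flt3- ETP the count of 4 became 0 without the kit term and 7 with the replicate block, the number series or edgeR. It was 2 without replicate 3 of Bcl11b- DN2a. Fits that leave 1 library of Flt3- ETP are not counted. For Flt3- against Flt3+ ETP the count of 0 became 3 with the number series and 5 with compared populations only. Fits that leave 1 library in either population are again not counted. For Bcl11b+ against Bcl11b- DN2a the count of 3 became 1 without the filter, 0 without the kit term or with NEBNext only, 6 without the first series, and 1 (without replicate 2 of Bcl11b- DN2a) to 3. Against total ETP the count of 9 became 5 without the filter or with NEBNext only, 0 without the kit term, 15 without the first series, and 4 (without replicate 2 of total ETP) to 12; it was 5 without replicate 1 of total ETP or replicate 3 of Bcl11b- DN2a. The replicate block changed no call of Fgf3 within DN2a.

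Shares of 10x cells depend on depth. With Il2ra they were 35.8% and 30.8% unthinned, 11.8% and 12.1% thinned to 2000 UMIs, and 26.3% and 27.1% where 2 UMIs made a cell positive. Without Il2ra they were 5.35% and 5.81% at 2000 UMIs and 9.62% and 11.3% with the 2-UMI rule. Under each setting cells with Il2ra had the higher share. The 12 alternatives for C1 cells moved no share beyond its interval.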
